A study of Mus musculus with 6 samples.

Results

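The genes described here are 3 cytokine genes, Ifnb1, Ifng and Il10, and the 6 genes of their receptor chains, Ifnar1, Ifnar2, Ifngr1, Ifngr2, Il10ra and Il10rb. Their probe sets were taken by gene symbol from the annotation of the Affymetrix MOE430 2.0 array, which gave 16 of 45101 probe sets for 9 of 18193 genes. Marrow cells from C57BL/6 mice were given the miR-142-3p mimic or a control oligonucleotide, at 100 nM with the reagent GeneSilencer. From 5 h later both groups were kept for 4 days with GM-CSF and IL-6, cytokines that drive marrow cells towards myeloid-derived suppressor cells (MDSCs), which hold T cell responses in check. RNA of 3 mimic and 3 control samples was hybridised, 1 array each. The labels give no age or sex of the mice and do not say whether the arrays of a group came from separate animals or cultures, so a p-value here reflects no more than the scatter of these arrays, which may be technical. The culture is a mixture of marrow cells, and in such bulk RNA fewer cells of a type and less RNA per cell cannot be told apart.

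Interferons are cytokines that warn cells of infection. Interferon beta, the product of Ifnb1, binds a receptor of the chains IFNAR1 and IFNAR2, interferon gamma (Ifng) binds IFNGR1 and IFNGR2, and IL-10, which restrains inflammation in macrophages and dendritic cells, binds IL10RA and IL10RB. Each receptor needs both of its chains. IFNAR1 and IL10RB carry the kinase TYK2, IFNAR2, IFNGR1 and IL10RA carry JAK1, and IFNGR2 carries JAK2, and these kinases activate STAT proteins that switch on target genes. All 6 chains belong to the class II cytokine receptor family.

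The microRNA that the mimic stands for is shown with its seed, bases 2 to 8 of the mature strand, in capitals, because the seed is the stretch that pairs with target messages. The sequence is that of RefSeq (GRCm38.p6, chr11:87756903-87756925, plus strand), where the mouse miRNA is named miR-142a-3p. The labels give no sequence of the mimic itself.
mmu-miR-142a-3p: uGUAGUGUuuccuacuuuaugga
Target messages were not searched for the seed, as no 3′ UTR sequence was used here.

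With the mimic, the type I interferon receptor gene Ifnar1 fell 1.54-fold, and it was the only 1 of the 9 genes to pass the test (limma over 18193 genes, adjusted p under 0.05). Ifngr2 and Il10ra had lower means in the mimic group, by 1.69-fold and 1.5-fold, and did not pass. Ifngr1 and Il10rb had higher means, by 1.22-fold and 1.14-fold, and did not pass either. For Ifnar2 and the 3 cytokine genes the log2 fold changes lay between -0.11 and 0.18, without passing. Of all genes tested 2.76% passed, 1.17% being higher and 1.59% lower with the mimic. The 3 mimic arrays lay wholly above or wholly below the 3 control arrays in 6 of the 9 genes, against 22.2% of all genes: 3 lay above, against 11% of all genes, and 3 below, against 11.1%. Among the 6 receptor genes this held for 5, against 35.8% of the 7662 genes with a mean log2 value of at least 3, a level that all 6 receptor genes reached. The median log2 fold change was -0.02 over the 9 genes, -0.30 over the 6 receptor genes and 0.01 over all genes. Each gene is given below through its probe set with the highest mean, in deposited log2 values. A change of 1 in such a value is a doubling, and values of different probe sets cannot be compared as levels.

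**Figure D1:**
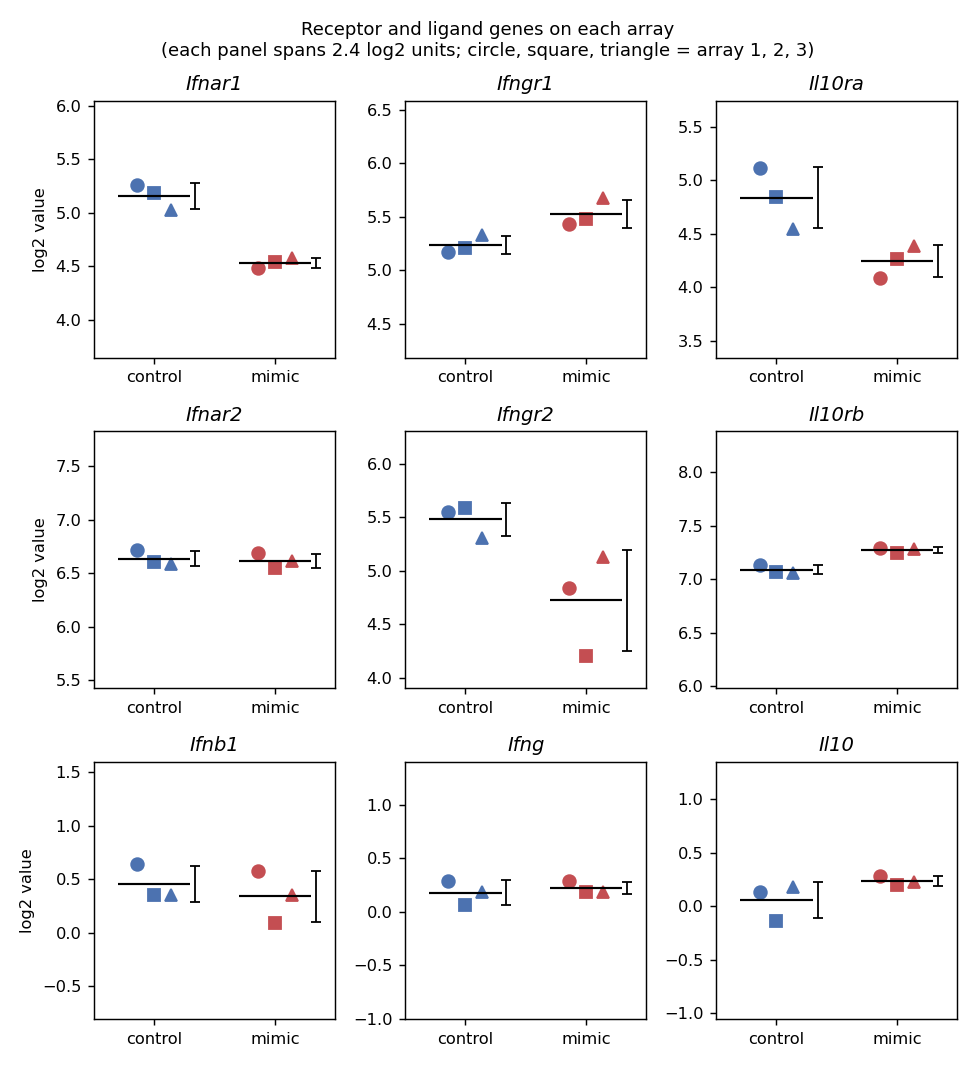
Deposited log2 values (y axis) of the 9 genes on the 3 control arrays (blue) and the 3 mimic arrays (red), with the mean as a line and the SD as a bar, on panels of equal span. The mimic arrays lie below the controls for Ifnar1, Ifngr2 and Il10ra and above them for Ifngr1 and Il10rb, while the groups overlap for Ifnar2, Ifnb1 and Ifng. Il10 is separated only within the lowest values of the arrays.

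Ifnar1 (Entrez gene 15975) encodes the chain of the type I receptor that is essential for signalling and is bound to TYK2. Its values were 5.26, 5.19 and 5.03 on control arrays 1, 2 and 3 and 4.49, 4.54 and 4.58 on mimic arrays 1, 2 and 3. Every mimic array was lower than every control array, and the gap between the groups exceeded the range within either. The mean fell from 5.16 ± 0.12 to 4.54 ± 0.05 (SD, n = 3), a log2 fold change of -0.62 ± 0.10 (SE, adjusted p = 0.0213 by limma, 95% interval -0.85 to -0.40). In a fit of all 45037 probe sets that are not array controls, this probe set again passed (adjusted p = 0.0411 by limma), and it was the only 1 of the 16 to do so, against 0.897% of all probe sets. A further probe set of the gene lay near the lowest values, at 0.52 ± 0.18 in the control group and 0.47 ± 0.05 in the mimic group (SD, n = 3). The call depended on the arrays. In the fit of genes, Ifnar1 did not pass once control array 2 or any 1 mimic array was set aside (adjusted p = 0.105 without the former and 0.124, 0.0893 and 0.0851 without mimic array 1, 2 and 3, by limma), with log2 fold changes of -0.61, -0.60, -0.62 and -0.65. In the fit of all probe sets it did not pass without any 1 of the 6 arrays, with adjusted p-values from 0.0627 to 0.22 by limma.

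Ifnar2 encodes the other chain of the same receptor, which binds the interferon most tightly and also occurs as a soluble form. On control arrays 1, 2 and 3 its brightest probe set stood at 6.72, 6.61 and 6.58, and on the mimic arrays at 6.68, 6.55 and 6.61. The groups overlapped, with means of 6.63 ± 0.07 and 6.61 ± 0.07 (SD, n = 3). The log2 fold change was -0.02 ± 0.09 (SE, adjusted p = 0.942 by limma), and its 95% interval of -0.23 to 0.19 excluded a fall as large as the value of Ifnar1. The 3 probe sets of Ifnar2 did not move as a group. By their suffix, the brightest and a dimmer one both match several transcripts of the gene. The dimmer one had means of 4.94 ± 0.15 for control and 4.77 ± 0.25 for mimic arrays. The dimmest of the 3, whose suffix marks probes that can also match other sequences, stood at 3.37 ± 0.49 and 3.91 ± 0.30. Its value on control array 1 was 2.81, and the lowest of the other arrays was at 3.6. Its log2 fold change was 0.54 ± 0.25 (SE, adjusted p = 0.418 by limma over all probe sets). With the mean of the spike-in controls as a covariate this probe set was called higher, at 0.89 ± 0.13 (SE, adjusted p = 0.0177 by limma), and without control array 1 it was at 0.27 ± 0.18 (SE, adjusted p = 0.58).

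**Figure D2:**
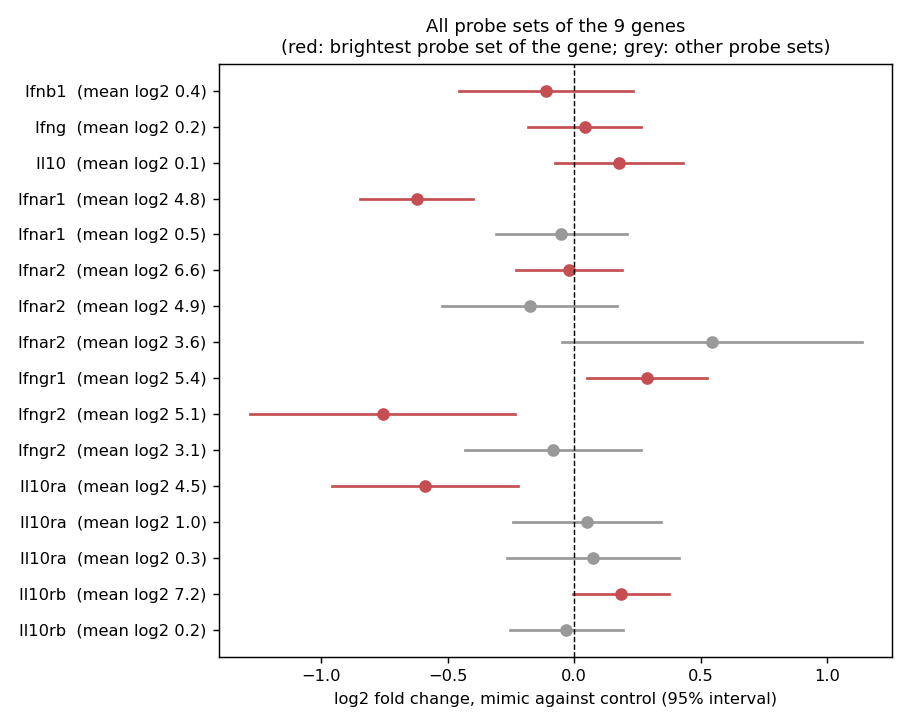
Log2 fold change (x axis, mimic against control) with its 95% interval for the 16 probe sets, each named by its gene and its mean log2 value, from the fit of all probe sets. The brightest probe sets (red) of Ifnar1, Ifngr2 and Il10ra lie left of 0, and dimmer probe sets of the same genes (grey) lie close to 0.

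The interferon gamma receptor chains had means that differed in opposite directions. Ifngr1 encodes the chain that binds the cytokine, and its values were 5.17, 5.21 and 5.33 on control arrays 1, 2 and 3 and 5.43, 5.48 and 5.67 on mimic arrays 1, 2 and 3. Every mimic array was above every control array, with the closest pair 0.10 apart on the log2 scale. The means were 5.24 ± 0.08 and 5.53 ± 0.13 (SD, n = 3), with a log2 fold change of 0.29 ± 0.10 (SE, adjusted p = 0.206 by limma).

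Ifngr2 encodes the chain that brings JAK2 to the receptor and whose amount can limit the response of a cell to interferon gamma. Control arrays 1, 2 and 3 stood at 5.55, 5.59 and 5.30, and mimic arrays 1, 2 and 3 at 4.84, 4.21 and 5.12. All mimic arrays were below the controls, but they were spread widely, with mimic array 2 the lowest and mimic array 3 close to control array 3. The means were 5.48 ± 0.16 and 4.72 ± 0.47 (SD, n = 3), and the log2 fold change of -0.76 ± 0.22 was the largest in size among the 9 genes, yet did not pass (SE, adjusted p = 0.129 by limma, 95% interval -1.27 to -0.25). Without mimic array 2 it was -0.50 ± 0.14 (adjusted p = 0.200 by limma). The other probe set of Ifngr2 had group means of 3.11 ± 0.28 and 3.03 ± 0.11, a log2 fold change of -0.08 ± 0.15 with overlapping groups (SE, adjusted p = 0.871 by limma over all probe sets).

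In the IL-10 receptor the mean of Il10ra was lower and that of Il10rb higher with the mimic, and neither passed. Il10ra encodes the chain that binds IL-10 and is made mainly by blood cells. Its values were 5.12, 4.84 and 4.55 on control arrays 1, 2 and 3 and 4.09, 4.26 and 4.39 on mimic arrays 1, 2 and 3. The groups did not overlap, although control array 3 and mimic array 3 lay only 0.16 apart. With means of 4.84 ± 0.28 and 4.25 ± 0.15 (SD, n = 3), the log2 fold change was -0.59 ± 0.16 (SE, adjusted p = 0.102 by limma, 95% interval -0.95 to -0.23). The remaining probe sets of Il10ra were dim, at means of 1.04 and 0.28 over all arrays, with overlapping groups.

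Il10rb encodes a chain found in most cells and shared with the receptors of other cytokines of the family. Its values were 7.14, 7.07 and 7.06 on control arrays 1, 2 and 3 and 7.29, 7.24 and 7.28 on the mimic arrays. The arrays of a group lay close together and the groups did not overlap. The means of 7.09 ± 0.04 and 7.27 ± 0.03 (SD, n = 3) gave a log2 fold change of 0.18 ± 0.08 (SE, adjusted p = 0.322 by limma), and the 95% interval ran from -0.01 to 0.38. The other probe set of the gene lay at the lowest values, with 0.17 on 3 of the 6 arrays.

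To compare the chains of 1 receptor, the log2 values of the chains were subtracted within each array and set relative to the control mean, a comparison chosen after the values were seen. For the type I receptor, Ifnar1 minus Ifnar2 was 0.02, 0.06 and -0.08 on control arrays 1, 2 and 3 and -0.72, -0.53 and -0.55 on the mimic arrays. For the interferon gamma receptor, Ifngr1 minus Ifngr2 was -0.14, -0.14 and 0.27 on the control arrays and 0.83, 1.51 and 0.79 on the mimic arrays. For the IL-10 receptor, Il10ra minus Il10rb was 0.23, 0.03 and -0.26 on the control arrays and -0.95, -0.73 and -0.64 on the mimic arrays. In all 3 receptors the groups were apart. For the gamma and IL-10 receptors this had to be so, as their chains were already apart in opposite directions. For the type I receptor, Ifnar1 was already apart while the mean of Ifnar2 hardly differed. The p-values of these differences therefore add no support to the values of the single genes. The mean differences, mimic minus control, were -0.60 ± 0.07, 1.05 ± 0.27 and -0.77 ± 0.17 (SE) for the type I, gamma and IL-10 receptors. Each exact two-sided permutation p was 0.1, also after adjustment over the 3 receptors, which is the smallest that 3 against 3 arrays can give.

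**Figure D3:**
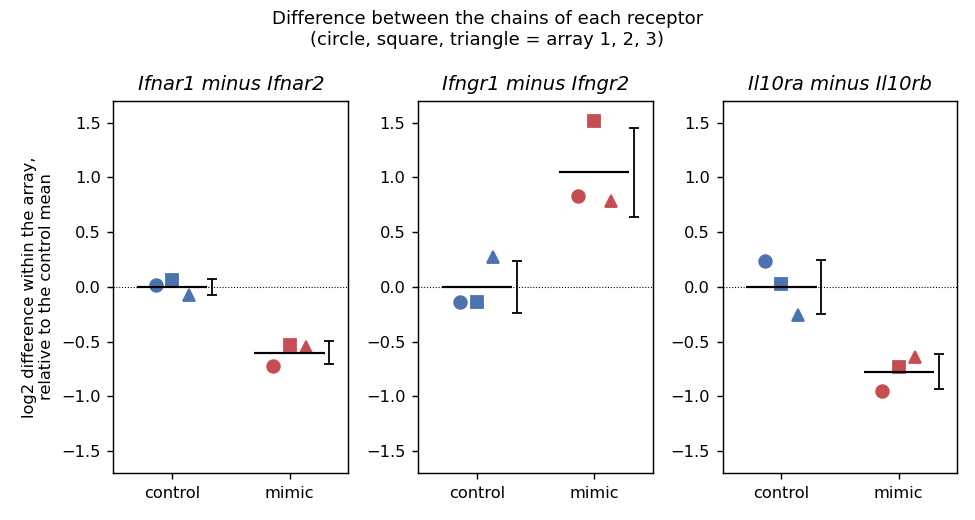
Log2 difference between the chains of each receptor within an array, relative to the control mean (y axis), on 3 control arrays (blue) and 3 mimic arrays (red), with the mean as a line and the SD as a bar. The mimic arrays lie below the controls for Ifnar1 minus Ifnar2 and Il10ra minus Il10rb and above them for Ifngr1 minus Ifngr2.

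The receptor genes also share a place in the genome. Ifnar2, Il10rb, Ifnar1 and Ifngr2 follow each other on chromosome 16 with no other protein-coding gene of RefSeq between them (GRCm38.p6), so the chains of different receptors are neighbours there. Along this row the log2 fold changes were -0.02, 0.18, -0.62 and -0.76. Ifngr1 lies on chromosome 10 beside Il22ra2, a further gene of the family, and Il10ra lies on chromosome 9. The other measured members of the family, Il20ra, Il20rb, Il22ra1, Il22ra2, Ifnlr1 and F3, did not pass, and 4 of them had a mean below 1.

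Promoters were examined because Ifnar1 and its neighbour Ifngr2 had the lowest log2 fold changes. The windows are from RefSeq (GRCm38.p6) and run from 250 bases before to 50 after the start of the gene, in chr16:91484965-91485264 for Ifnar1 and chr16:91546809-91547108 for Ifngr2, both on the plus strand. Capitals mark a match to TTCNNNGAA, the GAS motif of STAT dimers, which reads alike on both strands.
Ifnar1: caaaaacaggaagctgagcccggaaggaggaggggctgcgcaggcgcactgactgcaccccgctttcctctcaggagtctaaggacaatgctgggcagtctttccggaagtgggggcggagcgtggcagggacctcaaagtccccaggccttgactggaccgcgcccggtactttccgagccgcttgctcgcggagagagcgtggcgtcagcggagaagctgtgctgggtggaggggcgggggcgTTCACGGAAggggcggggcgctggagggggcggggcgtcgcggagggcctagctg
Ifngr2: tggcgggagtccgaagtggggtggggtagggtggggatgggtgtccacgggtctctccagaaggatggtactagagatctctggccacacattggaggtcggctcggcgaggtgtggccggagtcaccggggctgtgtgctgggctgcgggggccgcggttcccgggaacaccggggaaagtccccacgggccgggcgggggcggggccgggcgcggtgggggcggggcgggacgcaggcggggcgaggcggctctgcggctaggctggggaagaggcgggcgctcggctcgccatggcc
Of the 9 genes, 6 had a window in the table: Ifnb1, Ifng, Ifnar1, Ifnar2, Ifngr1 and Ifngr2. The GAS letters occurred in 3 of them, those of Ifng, Ifnar1 and Ifnar2, against 8.3% of 32851 windows of the same length. Counted by gene, they occurred in 6 of 18 type I interferon target genes and 8 of 16 interferon gamma target genes. Some target genes, such as Ifit2 and Gbp3, had several windows, so their counts by gene cannot be compared directly with shares of all windows. GAAANNGAA, letters of the interferon-stimulated response element (ISRE) that can share bases with the GAS motif, was searched on both strands and occurred in 0 of the 6, against 8.56% of all windows. It occurred in 11 of the 18 type I and 10 of the 16 gamma target genes. G and C made up 68.3% and 74.3% of the windows of Ifnar1 and Ifngr2, and 60.3% and 57.0% of those of Ifngr1 and Ifnar2. For Ifnb1 and Ifng the shares were 42.7% and 46.0%. The share over all windows was not taken, so none of these can be called high or low. These matches describe letters only, and no binding was measured.

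The cytokine genes lay among the lowest values of the arrays. Ifnb1 (Entrez gene 15977) stood at 0.64, 0.35 and 0.35 on control arrays 1, 2 and 3 and at 0.57, 0.09 and 0.35 on the mimic arrays, and the deposited number was identical on 3 of the 6 arrays. Such a repeat on 2 or more arrays was found in 30.3% of probe sets, most of them (77.9%) with a mean below 1. Ifng stood at 0.29, 0.06 and 0.18 in control and 0.29, 0.19 and 0.19 with the mimic. For both genes the groups overlapped. Il10 stood at 0.13, -0.13 and 0.18 in control and 0.28, 0.20 and 0.22 with the mimic, so the mimic arrays were above the controls by small steps. The array's own Trpn control probe sets, which match a bacterial gene, spanned 0.02 to 0.28, and the values of Il10 above 0 lay within that span or next to it.

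Log2 fold changes were -0.11 ± 0.15 for Ifnb1, 0.04 ± 0.10 for Ifng and 0.18 ± 0.11 for Il10 (SE, adjusted p = 0.768, 0.880 and 0.478 by limma). At these values a probe set cannot tell a low message from none, so a difference was not detectable here. RNA was taken after 4 days with cytokines, and an earlier burst of any of the 3 was not measured. Of 15 measured genes in a list of 28 interferons and related cytokines, 0 passed in either direction (median log2 fold change -0.0034, against 0.01 over all genes, of which 3101 had an unadjusted p under 0.05). In 10 of the 15 the mean was below 1. The largest difference was that of Ifna9, a type I interferon gene, with means of 0.83 ± 0.18 for control and 1.39 ± 0.22 for mimic arrays (SD, n = 3, adjusted p = 0.0925 by limma).

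Markers of cells that can make these cytokines were set beside them. Of 7 measured T cell markers 0 passed, 3 had a mean below 1 (Cd3g, Cd8b1 and Cd5), and their summed linear level ran from 16.1 to 17.9 in control and from 16.7 to 17.3 with the mimic. Of 9 measured markers of NK cells and innate lymphocytes, 7 had a mean below 1 (Ncr1, Klrd1, Klre1, Gzma, Prf1, Eomes and Il2rb), and 1, the granzyme gene Gzmb, passed upward. Their sum ran from 18.8 to 29.8 in control and from 52.6 to 59.3 with the mimic. Such a sum adds the linear values of different probe sets, so its brightest genes set it, here Gzmb (1.72 and 3.74 in log2 in control and mimic) and Nkg7 (3.29 and 4.92), a gene of cytotoxic granules that did not pass (adjusted p = 0.0532 by limma). Klrd1 stood at 0.88 and 0.58. Of 7 markers of plasmacytoid dendritic cells, the main makers of type I interferon, 1 passed downward, Spib, and the sums were 70.8 to 87.5 and 53.4 to 64.1. Spib (4.69 and 3.73) and Ly6d (5.00 and 4.51) were the brightest of them, and 3 of the 7 had higher means with the mimic: Cox6a2 (log2 fold change 0.45), Tcf4 (0.30) and Ccr9 (0.28).

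The kinases and transcription factors next to the receptors had lower means with the mimic in 5 of 6 genes. Of these 6 measured kinase, STAT and Irf9 genes 1 fell and 0 rose (median log2 fold change -0.11). The fall was that of Jak1, which serves all 3 receptors, from 6.52 ± 0.14 to 5.77 ± 0.25 (SD, n = 3), a log2 fold change of -0.75 ± 0.14 (SE, adjusted p = 0.0373 by limma). A probe set of Jak1 of similar brightness had means of 5.98 and 5.94, and the first did not pass in the fit of all probe sets (adjusted p = 0.0701 by limma). In the fit of genes Jak1 did not pass without any 1 of the 6 arrays, though without some of them no gene at all passed. Tyk2 had a log2 fold change of -0.49 ± 0.15 and Jak2 of -0.17 ± 0.12 (SE, adjusted p = 0.14 and 0.561 by limma). A dimmer probe set of Jak2 was at -0.67 ± 0.14 (SE, adjusted p = 0.0965 by limma over all probe sets). Stat3, which carries most of the IL-10 signal, stood at 6.42 and 6.37 in control and mimic.

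Of 9 genes that damp receptor signals, 1 rose and 0 fell (median log2 fold change -0.08). This was Usp18, whose product binds IFNAR2 and blocks the type I receptor and which is itself induced by interferon. Usp18 rose 2.16-fold, from 8.21 ± 0.32 to 9.32 ± 0.12 (SD, n = 3; log2 fold change 1.11 ± 0.16, SE, adjusted p = 0.018 by limma). It did not pass without control array 2 or any 1 mimic array. No gene at all did without control array 2, nor without mimic array 1 or 3. Socs3, an inhibitor that both IL-6 and IL-10 induce, had a log2 fold change of -0.45 ± 0.14, and Socs1, which acts on the interferon receptors, of 0.26 ± 0.23 (SE, adjusted p = 0.144 and 0.642 by limma).

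Most targets of the interferon receptors rose with the mimic, while no interferon gene measured here passed. Of 28 interferon and related cytokine genes listed, however, only 15 were measured, and 10 of these had a mean below 1. Of 21 measured type I interferon targets 14 rose and 0 fell (median log2 fold change 0.93), and of 19 measured interferon gamma targets 13 rose and 0 fell (median 0.78). The largest were Ifit2, Rsad2 and Ifit3 in the former, at 5.04-fold, 5.03-fold and 4.4-fold, and the GTPase genes Iigp1, Gbp3 and Gbp6 in the latter, at 7.80-fold, 3.96-fold and 3.67-fold. Many of these genes respond to both kinds of interferon. Relative to each gene's control mean, the type I targets had medians of -0.33, 0.09 and 0.24 on control arrays 1, 2 and 3 and of 0.90, 0.94 and 0.91 on the mimic arrays, so control array 1 was the lowest. Genes that sense nucleic acid or switch on type I interferon were mixed. Of 13 measured, 3 rose, Tlr3, Ifih1 and Irf7, at 2.35-fold, 2.19-fold and 2.07-fold, and 0 fell. Targets of IL-10 in macrophages went both ways. Of 16 measured 2 rose and 1 fell, with a median log2 fold change of -0.26. Il1rn, the gene of the IL-1 receptor antagonist, fell from 7.33 ± 0.09 to 6.68 ± 0.09 (SD, n = 3), or 1.58-fold. Fcgr1, an antibody receptor gene that interferon gamma also induces, rose 1.79-fold, and Arid5a, the gene of an RNA-binding protein, rose 1.48-fold. Of 10 genes that regulate the transcription of these cytokines 1 fell and 0 rose, the dim Crem (log2 fold change -0.93 ± 0.10, SE, adjusted p = 0.00862 by limma). The largest difference of this list was that of Maf, which did not pass, though all its mimic arrays were above the controls. Its log2 fold change was 1.64 ± 0.42 (SE, adjusted p = 0.0931 by limma). By their means 4 of the 10 were higher and 6 lower with the mimic. With the mean of all its probe sets Crem was at -0.19 (adjusted p = 0.257 by limma). With the most variable probe set of each gene, Il1rn was at -1.14 (adjusted p = 0.124 by limma), Arid5a did not pass (adjusted p = 0.062), and Rsad2 was at 1.53 (adjusted p = 0.363). Leaving out control array 2, or either mimic array 1 or 3, left 0 genes of these lists past the threshold, and 0 of all genes by limma (2564, 2343 and 2746 had an unadjusted p under 0.05). Without control array 1, 10 type I targets rose and 1 fell. The latter was Eif2ak2, with control arrays 1, 2 and 3 at 1.48, 3.65 and 3.98. Its mimic arrays 1, 2 and 3 stood at 1.92, 2.43 and 1.69, and with all arrays it did not pass (adjusted p = 0.443 by limma). Leaving out mimic array 2, 1 type I target, 2 interferon gamma targets, 1 sensor gene and 0 IL-10 targets rose, and 0 fell.

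**Figure D4:**
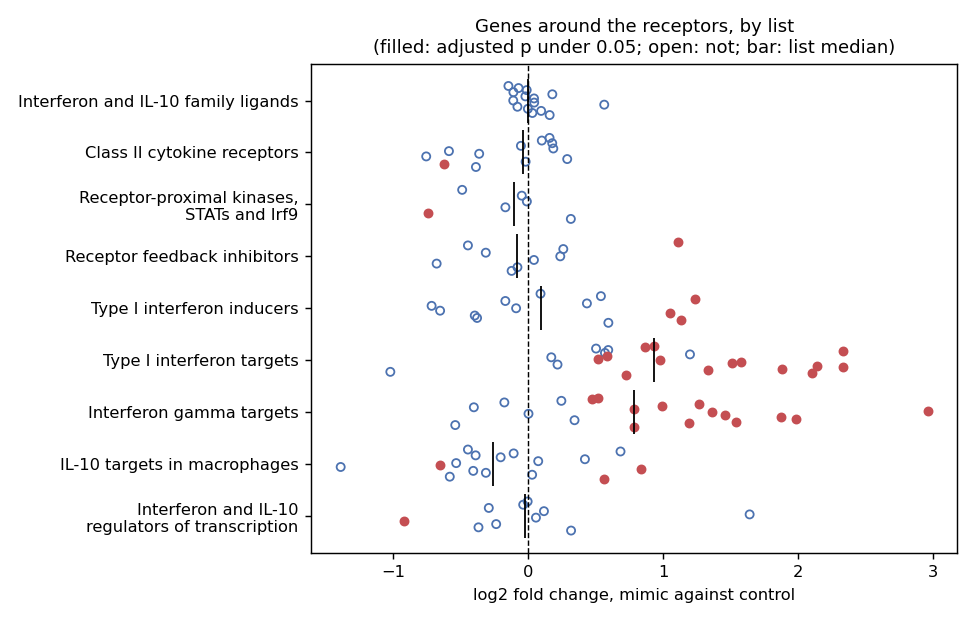
Log2 fold change (x axis, mimic against control) of each measured gene in 9 lists of genes around the receptors, filled where the adjusted p is under 0.05, with the list median as a bar. Filled points lie right of 0 for the interferon targets, while no cytokine gene is filled and all but Ifna9, at 0.56, lie near 0. The filled receptor gene, left of 0, is Ifnar1.

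Most markers of the cell types that the culture could hold did not pass. Each list below held at least 1 that did, however, and of all genes 2.76% passed. Of 10 measured MDSC and neutrophil markers 1 rose, Elane, and 1 fell, Itgam, with summed linear levels of 12296 to 14883 in control and 16409 to 16781 in the mimic group. The neutrophil and MDSC genes S100a8 and S100a9 were bright in both, at 11.85 and 12.21 in control and 11.96 and 12.25 with the mimic. Itgam, which encodes the myeloid surface marker CD11b, had a log2 fold change of -1.19, and Elane, the gene of neutrophil elastase, of 0.98. Mpo (0.97), Ngp (0.40) and Mmp9 (-0.48) did not pass, though their groups were apart. Of 7 measured dendritic cell markers 3 fell, Ccl17, Itgax and Ccr7, and their summed linear level ran from 224 to 636 in control and from 48.8 to 52.4 with the mimic, with Cd209a and Xcr1 below a mean of 1. The median of this list, each gene set against its mean in the control group, was 0.47, -0.16 and -0.29 on control arrays 1, 2 and 3. Control array 1 was also the highest and control array 3 the lowest for Ifnar1 and Il10ra. Of 8 monocyte and macrophage markers 3 fell, Csf1r, Cd14 and Ccr2, and 1 rose, Fcgr1, with sums of 1513 to 1587 and 1343 to 1414. Of 7 mast cell and basophil markers 2 rose, Cpa3 and Fcer1a, and of 7 B cell markers 1 fell, Ms4a1. No marker, and no other gene, passed once control array 2 was set aside, nor without mimic array 1 or 3. The part of these markers in the receptor values was not tested. Without control array 1 the log2 fold changes of Ifnar1 and Il10ra were -0.57 and -0.45.

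Genes whose values over the 6 arrays were most like those of the receptors were sought among 2278 genes whose mean log2 value was 6 or more, as a description with no test. For Ifngr1, the receptor gene with the highest log2 fold change, these were Morf4l2, Chil3 and Pram1 (Pearson r = 0.983, 0.979 and 0.979 over 6 arrays). Chil3, a chitinase-like protein gene of myeloid cells, had means of 10.79 ± 0.07 on control and 11.12 ± 0.11 on mimic arrays (SD, n = 3). For Ifngr2, with the lowest log2 fold change, they were Mgat2, Zfp36l2 and Clec5a (r = 0.985, 0.980 and 0.979). Clec5a, a lectin receptor gene of myeloid cells, stood at 6.79 ± 0.05 and 6.15 ± 0.39. All points share the 2 groups and their arrays.

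**Figure D5:**
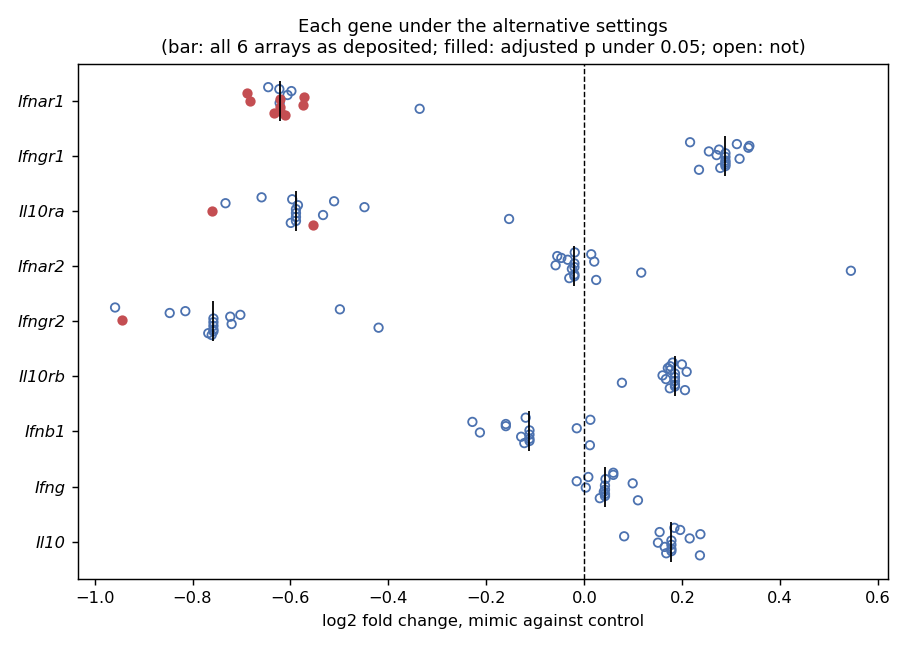
Log2 fold change (x axis) of each of the 9 genes with all 6 arrays as deposited (bar) and under the alternative settings (points), filled where the adjusted p is under 0.05. Ifnar1 keeps to the left of 0 throughout and is filled under 9 of 15 settings, and Ifnar2, Ifnb1 and Ifng have points on both sides of 0.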

How the data were processed

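Expression was measured on 6 Affymetrix MOE430 2.0 arrays, 3 per group, and the authors deposited 1 log2 value per probe set and array. The submitters' processing notes list RMA and affy without versions. Filters were not stated. The log base was taken from the values, which ran from -0.39 to 12.29 with 52.6% below 1. Column medians lay between 0.84 and 0.92, the mean of 18 spike-in probe sets between 7.53 and 8.92, and Pearson correlations between arrays from 0.982 to 0.996. Centring and floor are unknown, and the number of arrays limits the precision.

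Groups follow the treatment label and numbers the titles. Of 45101 probe sets 34945 have 1 gene symbol, and 34741 of these were updated to RefSeq names by gene identifier. No probe set with several symbols held a member. Each gene was tested through its probe set with the highest mean, by a two-sided moderated test without covariates (limma 3.58.1 under R 4.3.3) with Benjamini-Hochberg adjustment over all genes. All probe sets were fitted likewise. The code was tested on simulated data. All members are named; each list gives up to 3 genes that passed with the largest change, or else the 1 with the largest change, and others were chosen after their values were seen. Members and lists were chosen with earlier results of these data known. List genes not measured through a probe set with 1 symbol were not analysed here. Alternatives were filters on low values, leaving out each array, other normalisations, probe set choices and variance models, a spike-in covariate and a replicate block.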

Additional observations from a re-analysis of the deposited data

How the results depend on the processing

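Ifngr1, Ifngr2, Il10ra, Il10rb, Il10 and Ifnar1 kept their direction under every alternative that gave them a value. Of the 9 genes 1 was lower, and this number was 2 with array weights (adding Il10ra, adjusted p = 0.0465 by limma), 3 with the spike-in covariate (adding Ifngr2 and Il10ra, adjusted p = 0.0366 and 0.0129) and 0 with a mean log2 of at least 5, with the mean of all probe sets (Ifnar1 at -0.34) and with the replicate block, and 0 to 1 without 1 array. Ifnar1, below that level, was not tested there. Of the 16 probe sets 1 was called, and 0 with a mean of at least 5, with the replicate block or without any 1 array. With the spike-in covariate it was 3: those of Ifnar1 and Il10ra lower, and the dimmest of Ifnar2 higher (0.89, adjusted p = 0.0177 by limma), while that of Ifngr2 was not (adjusted p = 0.0692). Over all genes 213 were higher and 290 lower. Array weights gave 456 and 591, the spike-in covariate 1123 and 879, the replicate block 126 and 188, and leaving out 1 array 0 to 165 and 0 to 248, while 322 were higher after repeated quantile normalisation and 320 with a trended robust variance. Of all probe sets 404 were called, against 944 with array weights, 835 and 780 with a mean of at least 3 and 5, 634 after quantile normalisation, 69 with the replicate block, 2138 with the spike-in covariate, 812 with a trended robust variance and 0 to 314 without 1 array. The cause of these shifts was not tested, beyond the fewer genes or arrays that some settings leave. Same-numbered arrays did not deviate together (r = -0.13, 0.34 and -0.30 for numbers 1, 2 and 3), so the numbers are not taken as pairs; under the replicate block Ifnar1 had an adjusted p of 0.0632 by limma.

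Directions turned only for genes and probe sets whose log2 fold change lay near 0 at first. Ifnar2 was 0.024 with array weights (0.021 in the fit of probe sets), 0.12 with the mean of all probe sets and 0.54 with the most variable probe set, and Ifnb1 was 0.011 with array weights. Without 1 array the log2 fold changes ran from -0.055 to 0.020 for Ifnar2, from -0.23 to 0.012 for Ifnb1 and from -0.016 to 0.099 for Ifng. For the dimmer probe set of Ifngr2, with a mean of 3.07, they ran from -0.22 to 0.059. They ran from -0.089 to 0.036 for a dim probe set of Il10rb and from -0.13 to 0.043 for a dim probe set of Ifnar1. For the dim probe sets of Il10ra they ran from -0.039 to 0.15 and from -0.073 to 0.16. With array weights, dim probe sets of Il10rb and Il10ra were at 0.014 and -0.015. Filters at a mean of 3 left out Ifnb1, Ifng and Il10.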
